A study of Mus musculus with 2 samples.

Results

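The genes described here are 9 members of the pathway that brings cholesterol into adrenal cells, stores it as ester and moves it between membranes: Scarb1, Lipe, Soat1, Soat2, Npc1, Npc2, Lipa, Abca1 and Abcg1. They were matched by symbol, and all 9 were found among the 55536 genes of the tables. Total RNA was sequenced from the adrenal gland of adult female mice aged 8 to 10 months from a cross of 5xFAD with CAST, with 300 ng of RNA and ERCC spike-in RNA in each ribosome-reduced library. 5xFAD is a transgenic model of Alzheimer's disease whose transgenes are driven by the neuronal Thy1 promoter, and CAST is a wild-derived strain. There were 2 libraries, numbered as biological replicates 1 and 2 of 1 group and called mouse 1 and mouse 2 here. Both carry the same donor identifier, so their being separate animals rests on the replicate numbers. No group without the transgenes or of another strain was analysed here, so what follows gives the levels, the transcripts and the spread between these libraries.

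Steroid-producing cells of the adrenal cortex take cholesterol mainly from high-density lipoprotein through the scavenger receptor SR-BI, the product of Scarb1, without taking up the whole particle. Cholesterol that is not used at once is esterified by an acyltransferase of the endoplasmic reticulum (Soat1 or Soat2) and kept in lipid droplets, from which hormone-sensitive lipase (Lipe) frees it when the gland is stimulated by corticotropin. Ester that enters inside whole lipoproteins is hydrolysed in lysosomes by the acid lipase Lipa, and the proteins Npc2 and Npc1 hand the freed cholesterol out of the lysosome in turn. Abca1 and Abcg1 pump cholesterol out of the cell to apolipoprotein acceptors and to high-density lipoprotein.

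Sequences of 3 elements show where the transcripts of these genes part. Exon 12 of Scarb1 decides between the C-terminal tails of SR-BI, which includes it, and of the form SR-BII, which lacks it. It lies at chr5:125281105-125281233 on the minus strand (mm10), is 129 bases long, and holds 126 coding bases followed by the stop codon, shown in capitals.
Scarb1 exon 12: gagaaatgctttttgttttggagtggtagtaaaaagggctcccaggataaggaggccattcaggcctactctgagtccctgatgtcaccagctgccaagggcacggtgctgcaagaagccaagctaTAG
The genomic sequences before the upstream start of Soat1 and before the start of the leading Lipe transcript are given because transcripts of both genes begin at more than 1 place. They come from RefSeq (GRCm38.p6), leave out bases of annotated exons, and lie on the minus strand at chr1:156474332-156474578 and chr7:25390113-25390351. The Soat1 stretch ends 3 bases short of the RefSeq start, where the annotated exon begins, and the Lipe stretch ends at the RefSeq start. The Lipe stretch ends 6 bases before the annotated start of Lipe-202 and lies within an intron of Lipe-201. Capitals mark the CCAAT box.
Soat1 upstream of Soat1-207: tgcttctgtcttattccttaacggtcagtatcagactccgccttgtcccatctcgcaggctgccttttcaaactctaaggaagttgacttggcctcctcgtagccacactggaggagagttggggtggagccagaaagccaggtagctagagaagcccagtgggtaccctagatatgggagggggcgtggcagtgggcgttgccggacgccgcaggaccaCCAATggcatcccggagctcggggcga
Lipe upstream of Lipe-202: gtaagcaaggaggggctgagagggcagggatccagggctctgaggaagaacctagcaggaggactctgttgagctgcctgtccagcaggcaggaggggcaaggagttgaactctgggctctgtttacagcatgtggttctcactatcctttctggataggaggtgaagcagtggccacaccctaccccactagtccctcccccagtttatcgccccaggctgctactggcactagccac
The RefSeq table of promoters gave 6 windows for 5 of the genes (Soat1, Abca1, Lipe, Npc2 and Lipa). In the 250 bases before each start, 5 motifs were searched on both strands: the site of the steroidogenic factor NR5A1 (AAGGTCA), the GC box (GGGCGG), the E-box (CACGTG), the CCAAT box (CCAAT) and the full cyclic-AMP response element (TGACGTCA). CCAAT occurred once before Soat1, once before Lipa and in 2 places before Npc2, against at least 1 match in 33.8% of all 32851 windows. GGGCGG occurred 2 times before Abca1 and 3 times before Npc2 (32.7% of all windows), and CACGTG once before Abca1 (6.02%). The window before Lipe-202 held none of the 5. The other Lipe window, which lies inside the first exon of Lipe-201, held 6 GGGCGG and 1 CACGTG, and 1 pair of matches overlapped there and none in the other windows. Neither AAGGTCA (4.08% of all windows) nor TGACGTCA (1.55%) was in any of the 6 windows. The 2 printed stretches had a like GC content, at 58.7% and 58.2%, but the Soat1 stretch held 12 CG pairs and the Lipe stretch 1.

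Gene rows summed to 36558609 expected counts in mouse 1 and to 32192201 in mouse 2. A floor of 3 counts then stood for 0.0821 and 0.0932 CPM. Levels are given in TPM, a count scaled to transcript length and library size, which corrects for length and so lets different genes be compared. TPM was not rescaled between the mice, and nuclear protein-coding genes took 29.5% and 32.3% of it. All 8 markers of cortical steroid cells were above 1 TPM in both mice, with a summed level of 21619 and 22780 TPM. The deposited posterior SD of the count was 0 for all 9 genes in both mice, so the deposited model held no uncertainty over how reads were split between these and other genes. The reference genome is not that of CAST, and the effect of this on counts from CAST alleles was not tested.

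Scarb1 and Soat1 stood far above the other members, and Soat2 was close to the floor. Scarb1 (chromosome 5, 125277087 to 125341094, minus strand, mm10) was at 975 TPM in mouse 1 and 697 in mouse 2 (836 ± 196, SD, n = 2), which placed it 9th and 19th among 22015 protein-coding genes. Soat1 (chromosome 1, 156424525 to 156474331) was at 448 and 446 TPM (447 ± 1.46), ranking 41 and 48. Lipe (chromosome 7, 25379527 to 25398710) was at 73.2 and 102 TPM (87.6 ± 20.4). The lysosomal genes came in the order Lipa (chromosome 19, 34492318 to 34527474), at 65.0 and 75.8 TPM, Npc1 (chromosome 18), at 36.1 and 40.8 TPM, and Npc2 (chromosome 12, 84754562 to 84773152), at 23.0 and 25.0 TPM. Of the exporters, Abca1 (chromosome 4, 53030787 to 53159895) was at 51.1 and 63.1 TPM and Abcg1 (chromosome 17, 31057675 to 31117988) at 3.54 and 2.75 TPM. Soat2 (chromosome 15, 102150526 to 102163469) was at 0.09 and 0.13 TPM.

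The order of the 9 levels was Scarb1, Soat1, Lipe, Lipa, Abca1, Npc1, Npc2, Abcg1 and Soat2 in each mouse. Of the 8 pairs of neighbours in that order, Lipe and Lipa was the 1 pair whose ranges over the mice overlapped. In the second deposited quantification of the same libraries the order was the same and no neighbouring ranges overlapped. There, Scarb1 was higher by 1.24 and 1.25 times in mouse 1 and mouse 2, and Soat1 was lower, at 0.849 and 0.859 of its first value. In total, 8 of 9 members reached 1 TPM in both mice in both quantifications.

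**Figure D1:**
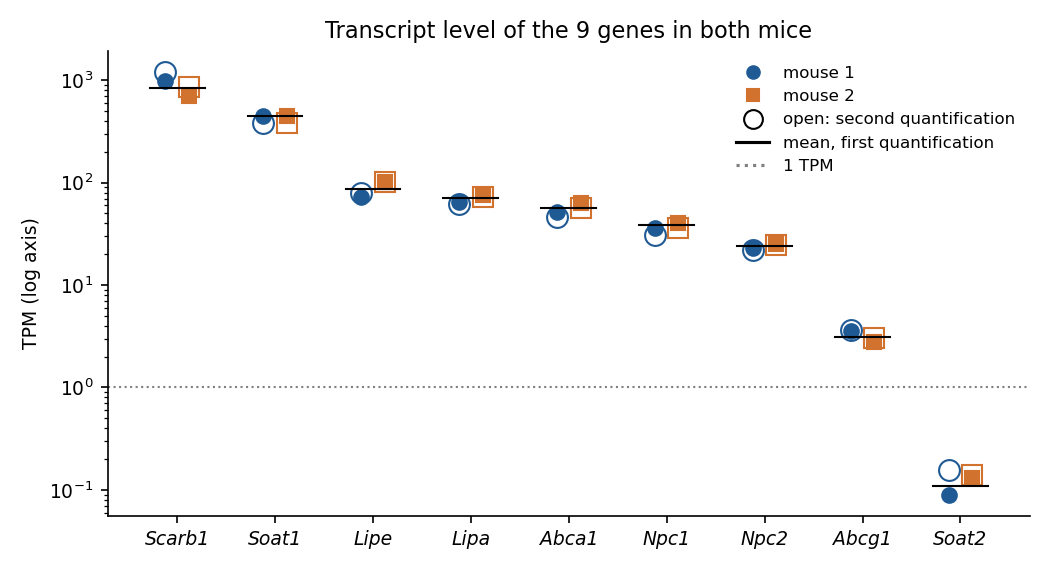
Level of the 9 genes in TPM on a log axis, with mouse 1 as blue circles, mouse 2 as orange squares, filled symbols for the first quantification, open symbols for the second, and a bar for the mean of the first (n = 2). Scarb1 and Soat1 lie above 400 TPM in the first quantification, and Soat2 lies below 1 TPM. The filled symbols of Lipe and Lipa overlap in range.

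Of the 8 members tested, Scarb1 differed most between the mice in scaled counts. In TPM, which was not rescaled, Lipe was at 73.2 in mouse 1 and 102 in mouse 2, but its scaled log2 ratio was 0.27. Differences are log2 ratios of mouse 2 to mouse 1 in expected counts scaled by TMM (trimmed mean of M-values), with 95% exact counting intervals, and a gene was called beyond counting noise at a Benjamini-Hochberg adjusted p of 0.05 in an exact binomial test over all genes whose mean count reached 10. With 2 libraries this compares the libraries and not conditions, and it has no replicate check. Of 8 members tested, 4 were beyond counting noise, as were 21.3% of all 17666 genes tested and 37.1% of the 5540 genes whose mean count reached 1000, a depth that 7 of the 8 had. Lipe and Abca1 were higher in mouse 2 (10.4% of all genes were called higher) and Scarb1 and Soat1 lower (11.0% were called lower). No member was 2-fold apart, against 2.96% of all genes (1.15% higher and 1.81% lower in mouse 2). The median log2 ratio of the 8 was 0.005, beside -0.0011 over all genes tested. Soat2, with a mean under 10 counts, was not tested.

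**Figure D2:**
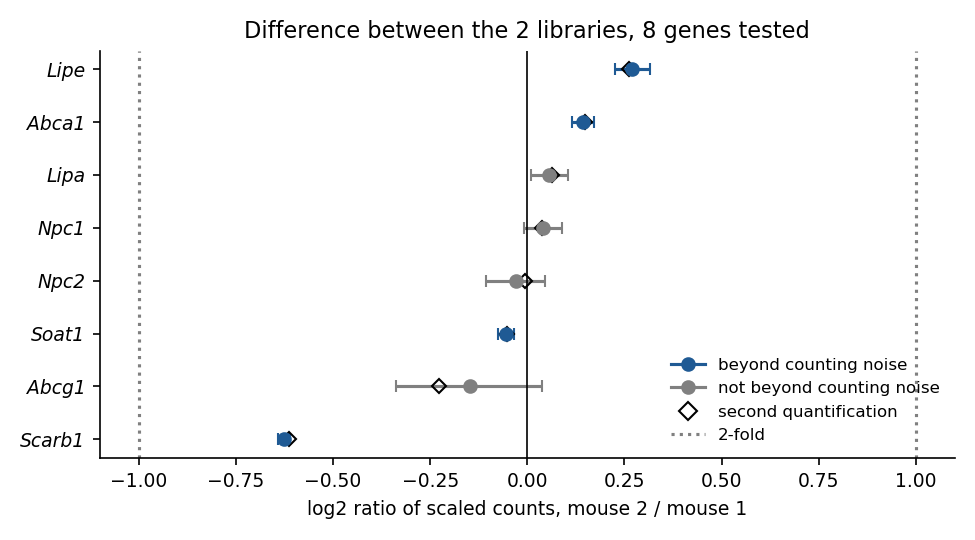
Log2 ratio of scaled counts, mouse 2 over mouse 1, for the 8 members tested, with 95% counting intervals (bars) and the value from the second quantification (diamonds); blue points are beyond counting noise and dotted lines mark 2-fold. Scarb1 lies at -0.63, apart from the other 7, which lie between -0.15 and 0.27.

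Scarb1, the uptake receptor, was lower in mouse 2. It had 92444 expected counts in mouse 1 and 54543 in mouse 2, a log2 ratio of -0.63 (interval -0.64 to -0.61), which is 1.54-fold higher in mouse 1. The second quantification gave -0.61, and all 7 settings gave -0.65 to -0.58. The median absolute log2 ratio of the genes whose mean count reached 1000 was 0.08. By absolute ratio, Scarb1 ranked 1508th of all 17666 genes tested. Akr1b7, an aldose reductase-like gene of the cortex that was in the list of cortical markers, was the marker of that list farthest from 0, at -0.85, with 57559 and 29008 counts. The other 7 cortical markers lay between -0.16 and 0.08. Of all 8, 6 were below 0, 5 were called lower and 2 higher, with a median of -0.08. Over all genes tested, 11.0% were called lower and 10.4% higher. Where the mean count reached 1000, 37.1% were called in either direction. Markers of chromaffin cells, from the adrenal medulla, lay on the same side as Scarb1 (all 7 below 0, 5 called, median -0.19, summed level 2091 and 1964 TPM). So did those of red blood cells (all 5 below 0 and called, median -0.99, summed level 747 and 409 TPM). The part of these cell types in the Scarb1 ratio was not tested. In bulk RNA, fewer cells of a kind and less RNA per cell cannot be told apart.

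RNA at 2 annotated models inside the first intron of Scarb1 differed far more between the mice than the Scarb1 messenger did. No count was made over the whole intron. Total RNA libraries hold unspliced as well as spliced RNA, and the annotation of Scarb1 lists 11 transcripts, several of them within introns. Intron 1 spans 36404 bases (chromosome 5, 125304353 to 125340756). Scarb1-211, a single-exon transcript of 2459 bases that lies wholly in it (125325261 to 125327719), had 1631 counts in mouse 1 and 87 in mouse 2. This is a log2 ratio of -4.06 (interval -4.42 to -3.78), 16.7-fold higher in mouse 1, and the second quantification gave -3.92, from 1702 and 100 counts. A separate gene model on the same strand in the same intron, Gm42633 (125318681 to 125321444), had 1419 counts in mouse 1 and 87 in mouse 2, a log2 ratio of -3.86 (-4.22 to -3.58) and -3.78 in the second quantification. Mouse 1 was thus high and mouse 2 low at 2 places of the intron that share no bases. These features were picked out after their values were seen, so no test is given.

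Against the rest of the transcriptome these intronic ratios are at the edge. The features were picked for their values, so their ranks describe them and test nothing. Of 26 transcripts of the members whose mean count reached 100, 5 were at least 2-fold lower in mouse 2, against 3.43% of all 20971 such transcripts. They were Scarb1-203, Scarb1-204, Scarb1-207, Scarb1-211 and Lipa-202. Scarb1 as a whole was at -0.63, and Lipa-202 was at 0.04 in the second quantification. At least 2-fold higher was 1 of the 26, against 3.17%. In both quantifications, 2 of the 26 were at least 2-fold lower, Scarb1-211 and Scarb1-203, against 1.36% of all and 1.75% of 1948 retained-intron transcripts. Scarb1-211 ranked 119th lowest of the 20971. Gm42633, a model of the class "to be experimentally checked" (TEC), ranked 12th lowest of all 17666 genes tested and 5th lowest of 12481 genes at that depth. It was lowest of 907 tested models of that class, of which 8.16% were at least 2-fold lower.

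The other partial transcripts of Scarb1 were not all alike. Scarb1-203, which begins 190 bases before exon 2 inside intron 1, had 384 and 42.6 counts in mouse 1 and mouse 2, a log2 ratio of -2.98 and -3.46 in the second quantification. The 5 transcripts that begin inside intron 1 summed to 2265 counts in mouse 1 and 145 in mouse 2. In the second quantification they summed to 2271 and 462, and there 1 of them, Scarb1-206, was higher in mouse 2, at 278 and 334 counts. Scarb1-207, which covers intron sequence near exons 10 and 11, had 2617 and 1185 counts, a log2 ratio of -1.01 (second -0.82). Scarb1-209, which runs from the first exon to a retained stretch of intron 11, went the other way, with 1099 and 1851 counts, a log2 ratio of 0.88 (second 0.69). Counts of transcripts that overlap on the genome are shared out by a model, which does not touch Scarb1-211 outside its overlap with the first exon of Scarb1-210, a transcript at 0 counts in both mice in the first quantification.

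**Figure D3:**
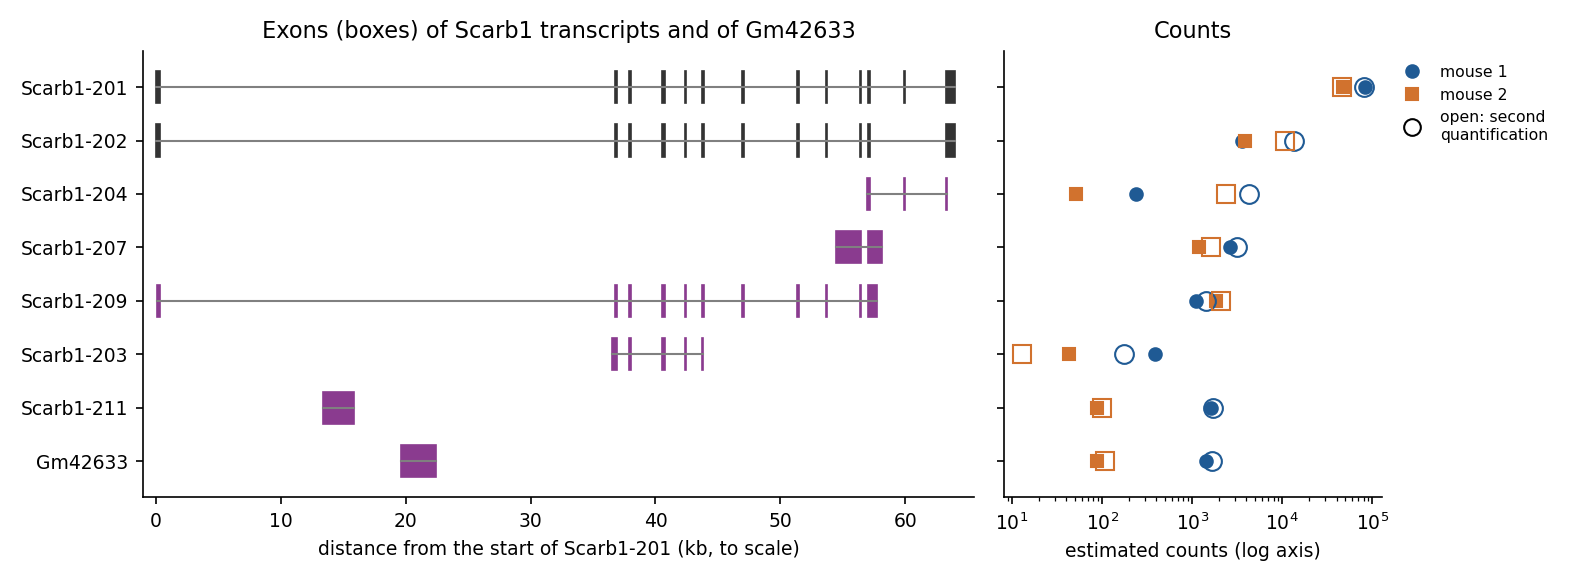
Left, exons of 7 Scarb1 transcripts and of Gm42633 against the distance from the start of Scarb1-201 in kb; right, estimated counts on a log axis for mouse 1 (blue circles) and mouse 2 (orange squares), open symbols for the second quantification. The symbols of the mice lie farthest apart for Scarb1-211 (1631 and 87 counts), Gm42633 (1419 and 87) and Scarb1-203, and close together for the full-length Scarb1-201.

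Most Scarb1 messenger carried exon 12, and the share without it was higher in mouse 2. Scarb1-201, the form with exon 12, made up 86.0% and 85.5% of the gene's TPM in mouse 1 and mouse 2, with 82620 and 47456 counts, and 55.7% and 53.2% in the second quantification. Scarb1-202, which skips exon 12 and so encodes the SR-BII tail, made up 4.00% and 7.42%, with 3596 and 3855 counts, a log2 ratio of 0.23. In the second quantification it made up 9.79% and 13.5%, with 13335 and 10795 counts, a log2 ratio of -0.17, so its own direction turned, while Scarb1-201 was at -0.67 in the first and -0.70 in the second. Of the 2 forms together, the form lacking exon 12 took 4.44% in mouse 1 and 7.98% in mouse 2. The second quantification gave 14.9% and 20.3%. The direction of the share was the same in both, by 1.80 and 1.36 times, but the level of SR-BII messenger differed more between the quantifications than between the mice. A further difference between them was Scarb1-204, a non-coding model over exons 11 to 13, with 1.63% and 0.61% in the first and 27.3% and 26.0% in the second.

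Of the esterifying enzymes, Soat1 made up nearly all of the messenger. Soat1 had 40487 and 35495 counts in mouse 1 and mouse 2, a log2 ratio of -0.06 (-0.08 to -0.03, adjusted p = 2.53e-06 in the exact binomial test). With scaling to total counts the ratio was -0.01 and was no longer called. Soat2, the enzyme known from liver and intestine, had 7 counts in mouse 1 (95% Poisson interval 2.81 to 14.4) and 9 in mouse 2 (4.12 to 17.1). Per length, Soat1 was 4939 times as abundant as Soat2 in mouse 1 (2397 to 12286) and 3433 times in mouse 2 (1808 to 7508). These intervals cover counting error only. In the second quantification Soat2 had 16.48 and 11.99 counts, and the ratios were 2411 and 2716, with the mice in the opposite order. Of 5 intestinal markers none reached 1 TPM in both mice, and Cdx2 and Alpi were at 0 counts. Of 7 liver markers 2 reached 1 TPM in both mice: Apoa2, at 1.03 and 1.05 TPM, and Cyp2e1, which other tissues also express, at 86.8 and 128 TPM. Alb had 36 and 113 counts, and Fgb 5 and 8. Of the 5 liver markers tested, 2 were called higher, Alb (log2 ratio 1.73) and Cyp2e1 (0.38), beside 10.4% of all genes.

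Most of the TPM of Soat1 came from transcripts that begin in the upstream exon or in the exon after it. The transcripts that start in the upstream exon, before which the printed Soat1 stretch lies, took 54.5% and 53.8% of the gene's TPM in mouse 1 and mouse 2 (46.3% and 49.1% in the second quantification). Soat1-201, which begins at 156466804 in the next exon, took 40.1% and 40.9%. Among the upstream forms, the long coding transcript Soat1-207 (8371 bases) took 10.8% and 13.0% of TPM but 40.3% and 44.3% of counts, since TPM divides by length. The short Soat1-206 (366 bases) took 21.9% and 16.4% in the first quantification and 8.43% and 6.95% in the second. Soat1-203, a retained-intron model, took 18.4% and 20.6%. Soat1-205, a retained-intron model that begins far downstream at 156433019, took 5.10% and 4.95% in the first quantification and 13.9% and 11.7% in the second. The shares of Soat1-201 and of the upstream group differed by under 1 percentage point between the mice in the first quantification.

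Lipe, the hormone-sensitive lipase that frees stored ester, was higher in mouse 2. It had 7601 and 8347 counts in mouse 1 and mouse 2, a log2 ratio of 0.27 (0.22 to 0.31, adjusted p = 3.47e-30 in the exact binomial test), 1.21-fold higher, and 0.26 in the second quantification. Lipe is also a gene of adipocytes, and the adipocyte markers moved with it. All 9 of them lay above 0, 8 of them beyond counting noise, beside 10.4% of all genes called higher. Their median log2 ratio was 0.70, and their summed level was 1479 TPM in mouse 1 and 2489 TPM in mouse 2. Adipoq, the adipocyte hormone, was at 57.3 and 95.7 TPM, and Ucp1, which makes heat in brown adipocytes, at 141 and 276 TPM. The part of adipocyte RNA in the Lipe ratio was not tested.

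Most Lipe transcripts began inside the gene's long first intron or the exon after it. Lipe-202, which starts at 25390106 next to the printed Lipe stretch, took 65.2% and 61.0% of the gene's TPM (47.2% and 44.9% in the second quantification). Lipe-201, which starts farther upstream at 25396379, took 14.8% and 13.2%. Lipe-208 took 10.9% and 13.6%, with 996 and 1398 counts, a log2 ratio of 0.62 (0.51 to 0.74) and 0.77 in the second quantification. Lipe-202 was at 0.21 (0.15 to 0.27) and 0.13, and Lipe-201 at 0.14 in both. Of these 3, Lipe-208 had the largest ratio in each quantification. The short Lipe-205 took 5.57% and 4.95%, and 10.4% and 13.5% in the second quantification. The retained-intron Lipe-207 took 3.58% and 6.95% but 12.1% and 4.22% in the second quantification, so that for both of these the mice changed order. An antisense gene, 4732471J01Rik, covers all of Lipe and had 98 and 84 counts. Because the strand setting of the counting is not given in the sources used here, reads of the pair may not be fully told apart.

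**Figure D4:**
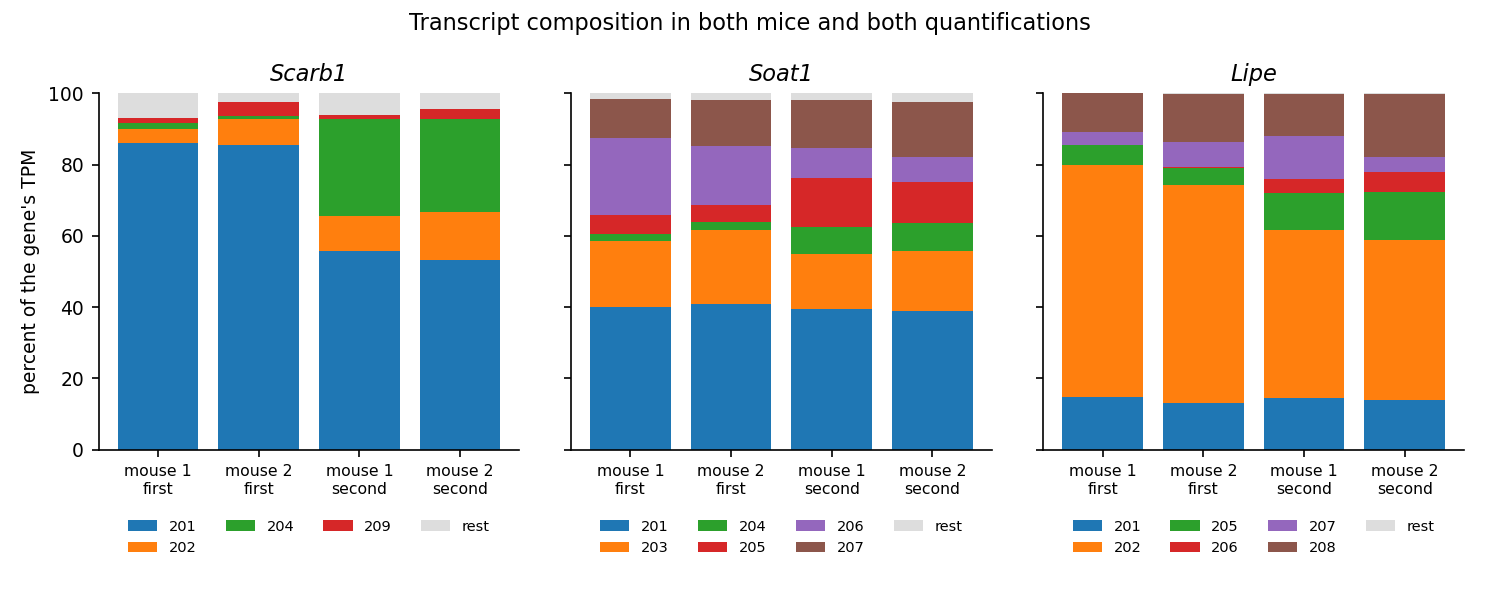
Share of each transcript in its gene's TPM (stacked bars from 0 to 100 percent) for Scarb1, Soat1 and Lipe in both mice and both quantifications; transcripts that reach 4% in no bar are in the grey rest. For Scarb1 the bars of the mice within a quantification are more alike than those of the quantifications, with Scarb1-204 at 1.63% and 27.3% in mouse 1.

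Against Nceh1, a neutral cholesterol ester hydrolase of the endoplasmic reticulum, the balance changed sides. Per length, Lipe was 0.820 of Nceh1 in mouse 1 (0.797 to 0.844) and 1.15 times Nceh1 in mouse 2 (1.11 to 1.18). In the second quantification Lipe was the higher of the pair in both mice, by 1.22 and 1.54 times. The rise in the ratio from mouse 1 to mouse 2 was thus common to both quantifications, and which gene led was not.

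The lysosomal route showed small differences. Lipa had 7544 and 7149 counts in mouse 1 and mouse 2, a log2 ratio of 0.06 (0.01 to 0.10, adjusted p = 0.0709 in the exact binomial test), and it was called at 0.06 in the second quantification and at 0.11 with scaling to total counts. Npc1, the membrane protein of the lysosome, had 6855 and 6422 counts, a ratio of 0.04 (-0.01 to 0.09, adjusted p = 0.269 in the exact test), called at 0.09 with scaling to total counts. Npc2, the soluble carrier, had 2915 and 2600 counts, a ratio of -0.03 (-0.11 to 0.05, adjusted p = 0.661 in the exact test), which turned to 0.02 with scaling to total counts. The counting intervals limit these differences to small sizes but do not show equal levels. Per length, Npc1 stood at 1.57 times Npc2 in mouse 1 (1.51 to 1.64) and 1.63 times in mouse 2 (1.56 to 1.71), intervals that overlap.

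Each lysosomal gene had 1 leading transcript. Lipa-201 took 91.3% and 95.3%, and Lipa-202, which lacks 4 bases directly before the start codon in exon 2, took 7.03% and 2.66%. The second quantification put Lipa-202 at 0.0121% and 0.0126%, so the 2.55-fold difference of its counts between the mice (533 and 189) was in the first quantification alone. Npc1-201 took 84.2% and 88.9% (94.1% and 93.4% in the second), and the retained-intron Npc1-206 11.5% and 7.94% (1.18% and 0.799%). The end of Npc1 overlaps that of Rmc1, on the opposite strand, by 967 bases, and Rmc1 had 1664 and 1451 counts. Npc2-201 took 95.5% and 96.7% (86.8% and 83.5%).

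Of the exporters, Abca1 was the abundant one and was slightly higher in mouse 2. It had 20897 and 21027 counts, a log2 ratio of 0.14 (0.12 to 0.17, adjusted p = 1.55e-22 in the exact binomial test), and Abca1-201 took 98.7% and 99.8% of its TPM. Abcg1 had 521 and 428 counts, a ratio of -0.15 (-0.34 to 0.04, adjusted p = 0.288 in the exact test) and -0.23 in the second quantification. Abca1 was 14.5 times as abundant as Abcg1 per length in mouse 1 (13.2 to 15.8) and 22.9 times in mouse 2 (20.9 to 25.3). Of Abcg1, Abcg1-201 took 58.0% and 79.8% of TPM but 91.9% and 96.6% of counts. The short Abcg1-203 took 26.2% and 6.59% on 20.6 and 3.24 counts, too few to call a change of form, and Abcg1-204 took 11.0% and 6.55% on 12.9 and 4.80 counts. The second quantification put Abcg1-203 at 39.9% and 23.7%, and Abcg1-204 at 4.17% and 14.1%, with the mice in the opposite order. Both exporters are also made by macrophages: 9 of 10 macrophage markers were tested, all 9 lay above 0 with a median of 0.07 and none was called, their summed level was 122 and 142 TPM, and Marco had 1 and 0 counts. Of 8 endothelial markers all were above 0 and 2 were called, beside 10.4% of all genes called higher. Their median was 0.07 and their summed level 179 and 226 TPM. The part of RNA from either cell type in the exporters' ratios was not tested.

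The wider pathway was read from 5 lists that hold 59 other genes, of which 53 were tested. Of these, 15 were beyond counting noise and higher in mouse 2 and 6 lower, which is 39.6% of them, beside 21.3% of all genes tested and 37.1% of those whose mean count reached 1000. None of the 53 was 2-fold apart, against 2.96% of all genes tested, and the median of the 53 was 0.02. The list of ester storage and hydrolysis lay highest: of 10 tested genes (11 in the list) 8 were above 0, with a median of 0.28. It had 5 called higher and 1 lower, beside 10.4% and 11.0% of all genes tested. Its leading genes were Pnpla2, the first lipase of triglyceride droplets, at 133 and 189 TPM (0.31), Plin2, a droplet coat protein, at 132 and 156 TPM (0.05, not called, but called at 0.07 in the second quantification and at 0.10 with scaling to total counts), and Plin1, the coat protein of adipocyte droplets, at 100 and 156 TPM (0.44). The farthest from 0 were Plin4 (0.90) and Ces1d (0.75). Plin1 is also 1 of the adipocyte markers given beside Lipe, and the part of adipocyte RNA in this list was not tested.

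The uptake list was split, with 5 of 10 tested genes (13 in the list) above 0, 4 called higher and 2 lower, and a median of 0.02. Of all genes tested, 10.4% were called higher and 11.0% lower. Apoe, a ligand of lipoprotein receptors, was at 323 and 311 TPM (-0.17). Cd36, a scavenger receptor for fatty acids, was at 130 and 176 TPM (0.31), and Lpl, the lipoprotein lipase of fat and muscle, at 105 and 174 TPM (0.62). Adipocytes express both, and the adipocyte markers given beside Lipe (9 of 9 above 0, median 0.70, summed level 1479 and 2489 TPM) moved with them, a part that was not tested. Pdzk1, the scaffold that holds SR-BI at the surface of liver cells, had 1 and 2 counts.

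Genes of intracellular trafficking differed little between the mice. Of 16 tested genes 2 were called higher and 2 lower, beside 10.4% and 11.0% of all genes tested, with a median of 0.01. Gramd1b, which carries cholesterol from the plasma membrane to the endoplasmic reticulum, was at 243 and 263 TPM (0.01, not called), well above either Npc gene. Its ratio was called at 0.04 in the second quantification and at 0.06 with scaling to total counts, and was -0.01 with ERCC scaling. Lamp1, a lysosomal membrane protein, was at 124 and 143 TPM (0.02, called at 0.07 with scaling to total counts only). Scp2, a sterol carrier, was at 103 and 111 TPM (0.00, not called), and at -0.02 with ERCC scaling. The farthest from 0 were Stard5 (0.28) and Stard4 (-0.24), both sterol-binding proteins of the cytosol and both called.

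The efflux list held 5 tested genes of 7, all below 0, with 1 called (11.0% of all genes were called lower) and a median of -0.10. Abcg4 was at 14.7 and 15.9 TPM (-0.09), Abca2 at 14.1 and 13.0 TPM (-0.01), and Abca7, a relative of Abca1, at 6.21 and 6.36 TPM (-0.14, called). Abca5 was at -0.10. Apoa1 was farthest from 0, at -0.81 (-2.50 to 0.42), on 15 and 7 counts, and was not called. Scaling to total counts turned Abca2 to 0.04, as the second quantification did at 0.02, and Abca7 was called in neither. Abcg5 and Abcg8, the paired sterol exporter of liver and intestine, had 5 and 1 and 1 and 0 counts.

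Of 12 genes that control the pathway, 4 were called higher and none lower, with a median of 0.05. Over all genes tested, 10.4% were called higher and 11.0% lower. Nr5a1, the steroidogenic factor that drives cortical genes, was at 232 and 274 TPM (0.08). Srebf1, which drives lipid synthesis genes, was at 47.5 and 55.8 TPM (0.12), Insig1, which holds sterol sensing in the endoplasmic reticulum, at 33.5 and 42.4 TPM (0.22), and Rxrb, a partner of the oxysterol receptors, at 16.4 and 20.6 TPM (0.20). Nr1h3 and Nr1h2, the oxysterol receptors that act on Abca1 and Abcg1, were at 0.12 and -0.11 and were not called.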

How the data were processed

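The values are on mm10 with GENCODE M21, per the file headers and text records. Which aligner and quantifiers made them is "not given in the sources used here". The authors' first gene and transcript tables, made from transcriptome alignments, hold expected counts (estimated, not always whole), TPM, FPKM, a posterior SD and posterior mean of each count and, per the file headers, each transcript's percent of its gene. Their second transcript table, deposited for the same libraries and made straight from the reads, holds estimated counts and TPM, here summed to genes. The labels name a directional library kit.

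All 55536 gene identifiers matched the annotation. Spike-in and other rows without a gene were left out of totals and tests, and ERCC rows held 0.502% and 0.526% of counts. Ratios used TMM factors (edgeR 4.0.16, R 4.3.3) and a prior count of 2 where the mean count reached 10. Counts were rounded for the exact two-sided binomial test and for exact 95% Clopper-Pearson or Poisson intervals. The test was adjusted by Benjamini-Hochberg over all genes. It was checked on simulated counts that held counting noise alone, so the check does not cover variation between animals or libraries. The libraries are not said to carry molecular identifiers, so intervals and floors cover counting error only. With 1 group there was no test between conditions. Scripts used scipy 1.17.1, numpy 2.4.6 and pandas 2.3.3 under Python 3.11.15.

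The members and lists were chosen with earlier results of these data known. Named were all 9 members, their transcripts with a mean share of at least 5%, and for each pathway list the 3 genes of highest mean TPM and the 2 largest absolute ratios among genes with at least 100 counts. Other genes and transcripts were named after their values were seen. Alternatives were total count, median-of-ratios (DESeq2 1.42.0) and ERCC scaling, other filters, a prior count of 0.5, nuclear protein-coding genes alone, FPKM, the posterior mean, other TPM thresholds, the second quantification and each mouse alone. Single values of 1 gene of the uptake list are not reported here.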

Additional observations from a re-analysis of the deposited data

Results flagged for a closer look

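The row of phiX, a spike-in for sequencing runs, is used in no comparison above and had 354 expected counts in mouse 1, beside 238 in mouse 2. The highest of the numbered rows that name no gene had 3.98 expected counts, in mouse 1.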

How the results depend on the processing

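Of the 9 members, none was 2-fold apart under any scaling, prior count or quantification tried. In the main setting 4 were beyond counting noise, beside 3771 of all 17666 genes tested. With scaling to total counts there were 5 (4356 of 17666 genes): Soat1 was no longer called, and Lipa and Npc1 were. In the second quantification there were also 5 (4114 of 19508 genes), with Lipa added to those of the main setting. The numbers of all genes at least 2-fold higher and lower in mouse 2, 204 and 319, became 112 and 141 among nuclear protein-coding genes only, 1348 and 1303 with no filter on counts, and 28 and 37 with a mean of at least 100 counts. Scaling to total counts moved the median of all genes to 0.05 on the log2 scale. In the second quantification, 17 of 22 transcript shares and 4 of 9 member levels lay over 1 SD from the first. With 1 mouse left out, 8 members still reached 1 TPM, and 7 reached 10 TPM in both mice. No ratio can be formed from 1 mouse. No paired analysis was possible because there is 1 group. Soat2 and the minor Abcg1 transcripts had under 40 counts in each library, which limits their precision.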
